A study of Mus musculus with 6 samples.

Results

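The genes described here encode the proteins that place and remove DNA methylation: Dnmt1, its partner Uhrf1, Dnmt3a, Dnmt3b and Dnmt3l on the writing side, and Tet1, Tet2 and Tet3 on the removing side. They were taken by gene symbol from a deposited table whose unit is FPKM, that is, sequenced fragments scaled to the length of the transcript and the size of the library, and all 8 were found among its 25170 symbols. The RNA-seq covers 6 libraries of the established mouse embryonic stem cell (ESC) line E14, grown in serum with leukemia inhibitory factor (LIF, a cytokine that supports self-renewal) or for 4 days after its removal. Each medium has 1 wild type (WT) library and 2 Hnrnpf KO libraries, KO 1 and KO 2, and all 6 come from total RNA. The labels do not say how Hnrnpf was disrupted, whether KO 1 and KO 2 are separate clones, whether KO 1 with LIF and KO 1 without it share an origin, or whether each library had its own culture. The p-values therefore reflect how far these particular libraries scatter, and part of that scatter may be technical. Hnrnpf, which encodes an RNA-binding protein that takes part in splicing, stood at 342 and 335 FPKM in the WT libraries, at 98.7 and 95.2 in KO 1 and at 37.1 and 27.8 in KO 2, with LIF and after its removal respectively. KO 1 thus kept 28.9% and 28.4% of the WT transcript level and KO 2 10.8% and 8.28%.

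DNMT1 copies methylation onto the new DNA strand at replication, and UHRF1 recruits it by binding hemimethylated CpG. DNMT3A and DNMT3B add methyl groups to unmethylated CpG, and DNMT3L, which has no catalytic activity of its own, stimulates both. TET1, TET2 and TET3 oxidise 5-methylcytosine, the first step of active removal. Naive mouse ESCs are known for low methylation, and the passage to the formative and primed epiblast state is known for a rise of Dnmt3b and a gain of methylation. Only RNA was measured here, so nothing is known of the proteins or of methylation itself.

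RefSeq (GRCm38.p6, the assembly of mm10) lists 15 start sites for the 8 genes, each with a window of 300 bases, which begins upstream of the start and ends 50 bases into the transcript. The windows were searched, after the values were seen, for letters bound by E2F factors, which drive S phase genes (TTTGGCGC, TTTCCCGC, TTTGCCGC or TTTCGCGC, either strand), and by STAT factors, which act downstream of LIF (TTCNNNGAA, either strand). E2F letters stood in 2 of the 15 windows, 1 of Dnmt1 and 1 of Uhrf1, the maintenance pair, against 2.27% of 32851 windows of all genes. All of the E2F letters contain CG, and both windows held 33 CpG, more than 91.4% of all windows. The share over all windows is therefore not a like background for them. STAT letters stood in 1 of the 15, at an internal start of Dnmt3l, against 8.30% of all windows. These matches are descriptions of the letters, no hit overlapped another, and nothing follows from them about binding. The sites are shown with the matched letters in capitals, 5′ to 3′ on the strand of the gene.
Uhrf1, chr17:56304117-56304146, plus strand, intron: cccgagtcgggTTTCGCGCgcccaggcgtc
Dnmt1, chr9:20952824-20952853, minus strand, exon: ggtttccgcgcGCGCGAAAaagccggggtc
Dnmt1, chr9:20952574-20952601, minus strand, exon: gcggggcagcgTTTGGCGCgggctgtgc
Dnmt3l, chr10:78049705-78049734, plus strand, intron: cccccaccctTTCCCCGAAgccctctccca

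The same windows differed widely in CpG, the dinucleotide these enzymes act on. The Tet2 window held 57 CpG, more than 99.8% of all windows, and 2 of the 3 Dnmt3a windows held 46 and 47. These 2 Dnmt3a windows overlap, so their counts are not separate. The 3 Dnmt3l windows held 6, 4 and 3, against a median of 7 over all genes. The Dnmt3b window held 30. Its first 212 bases, which lie upstream of the start site, are shown with their 16 CpG in capitals. Dnmt3b was chosen because it had the highest ratio of the level without LIF to that with it in WT.
Dnmt3b, chr2:153649199-153649410, plus strand: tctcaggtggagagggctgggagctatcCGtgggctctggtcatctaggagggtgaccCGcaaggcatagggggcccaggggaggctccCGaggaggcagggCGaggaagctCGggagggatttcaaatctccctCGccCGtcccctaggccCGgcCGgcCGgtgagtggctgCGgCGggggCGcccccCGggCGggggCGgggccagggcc

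Levels differed widely among the 8 genes. FPKM is scaled to length, so genes can be set side by side on it. In the WT library with LIF the order was Dnmt3l (134 FPKM), Uhrf1 (131), Dnmt3b (117), Dnmt1 (88.1), Tet1 (37.3), Dnmt3a (17.5), Tet2 (12.002) and Tet3 (0.954). Dnmt3l, Uhrf1 and Dnmt3b are neighbours in this order whose gaps are smaller than the gaps between KO 1 and KO 2 for Dnmt3l, so their order is not resolved. After LIF removal Dnmt3b led in all 3 libraries and Tet3 was last, except in KO 2, where Tet3 (2.93 FPKM) and Tet2 (2.86) were level. All 8 passed the filter for testing (average FPKM of 1 or more), and Tet3 (average 1.68) passed it narrowly.

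**Figure D1:**
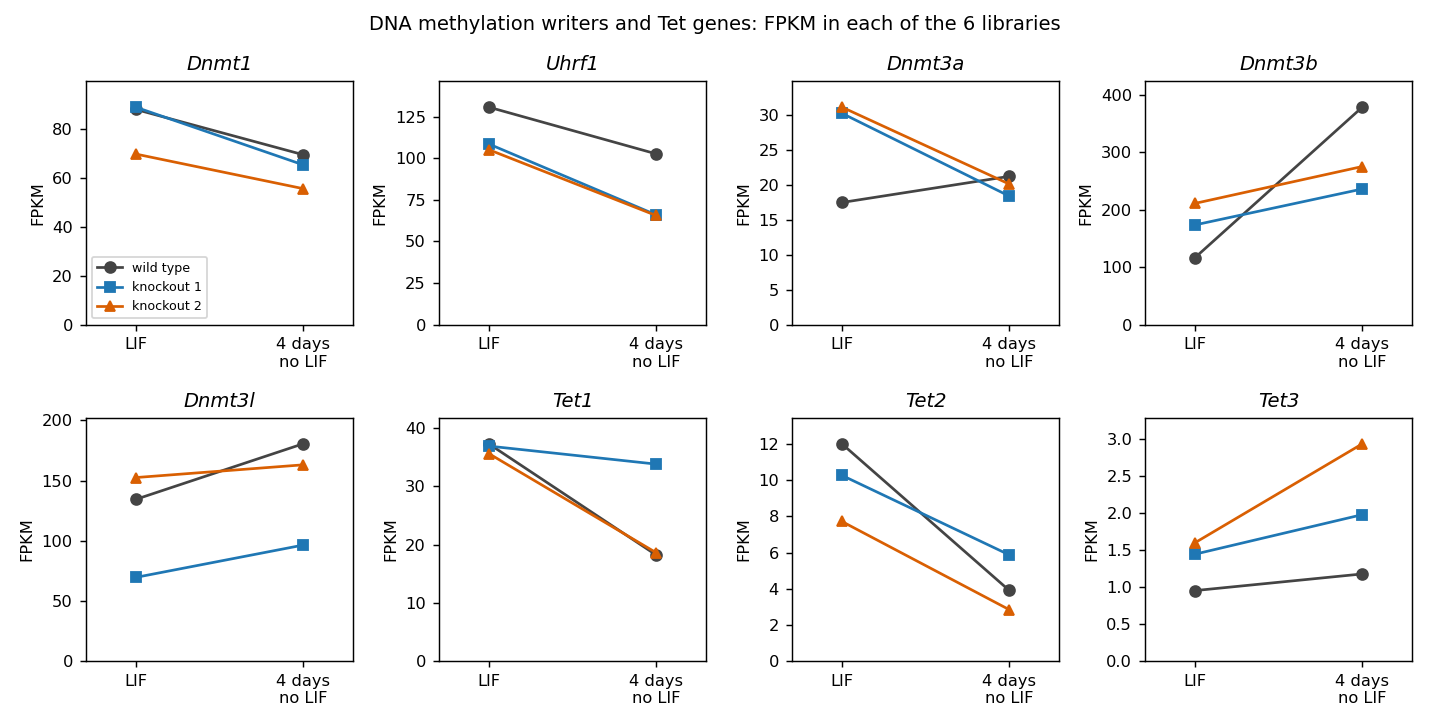
FPKM (y axis, from 0) of the 8 genes with LIF and after 4 days without it (x axis). Each point is 1 library and lines join libraries of the same genotype and number. Dnmt3b runs from 117 to 379 FPKM in WT but from 174 to 236 and from 211 to 275 in KO 1 and KO 2, and Tet1 stays at 33.8 FPKM in KO 1 where the other libraries without LIF stand at 18.2 and 18.6.

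LIF removal over both genotypes, 3 libraries against 3, asks how these genes respond as ESCs leave self-renewal. Uhrf1 and Tet2 fell and Dnmt3b rose, 3 of 8 genes called at an adjusted p under 0.05 (limma), against 21.4% of all 11785 genes tested. The median log2 difference of the 8 genes was -0.35, and that of all genes -0.03. Libraries with and without LIF did not overlap for 5 of the 8, Dnmt1, Uhrf1, Dnmt3b, Tet1 and Tet2, against 31.7% of all genes tested. In bulk RNA, fewer cells of a type and less RNA per cell cannot be told apart.

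Uhrf1 (chromosome 17, 56303321 to 56323486), the hemimethylated CpG reader, stood at 131 FPKM in WT with LIF and 103 without. It stood at 109 and 66.0 in KO 1 and at 105 and 65.6 in KO 2. Every library without LIF lay below every library with it, if narrowly so for WT without LIF against KO 2 with LIF. Uhrf1 fell by 0.58 on the log2(FPKM + 1) scale (SE 0.10, adjusted p = 0.00861), and the call held when any 1 library was left out. Dnmt1 (chromosome 9, 20907209 to 20959888), the maintenance enzyme, stood at 88.1 FPKM in WT with LIF and 69.6 without, at 89.1 and 65.5 in KO 1 and at 69.9 and 55.7 in KO 2. Its libraries with LIF lay above all those without, but KO 2 with LIF and WT without LIF were level, and the difference of -0.37 did not pass (SE 0.12, adjusted p = 0.0681). Both genes are known to be induced in S phase and proliferation. Of 12 genes of this process, Mcm7 was called lower and none higher in the same comparison, where 21.4% of all genes were called. The list median was -0.26 (log2), and the part of these 12 genes in the Uhrf1 result was not tested.

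Dnmt3b (chromosome 2, 153649450 to 153687730), the de novo enzyme of the epiblast, stood at 117 FPKM in WT with LIF and 379 without. In KO 1 it stood at 174 and 236 and in KO 2 at 211 and 275. Libraries without LIF were all higher, and the WT pair spanned the whole range of the 6 values. Dnmt3b rose by 0.84 (log2, SE 0.24, adjusted p = 0.0416). The call was lost without KO 1 with LIF (adjusted p = 0.0875) and without KO 2 after removal (0.0620). Without either WT library only KO cells compare the media. Both of these fits give the difference in KO cells alone, 0.41, which is reported below and did not pass. The call was also lost without the filter on low values (adjusted p = 0.105) and without an intensity trend in the fit (0.0695).

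Dnmt3a (chromosome 12, 3806007 to 3914443) has an internal start, known to give the shorter isoform prevalent in ESCs, which the single value per symbol does not separate. It stood at 17.5 FPKM in WT with LIF and 21.2 without, at 30.2 and 18.4 in KO 1 and at 31.1 and 20.1 in KO 2. Both KO libraries with LIF stood apart at the top, and the other 4 libraries lay between 17.5 and 21.2 FPKM. Over both genotypes the difference was -0.34 (SE 0.18, adjusted p = 0.218). Dnmt3l (chromosome 10, 78041947 to 78063622), the accessory factor, stood at 134 and 180 FPKM in WT, 69.6 and 96.4 in KO 1 and 152 and 163 in KO 2, with LIF and after removal. Each pair was higher without LIF, yet the media overlapped, and the difference of 0.33 did not pass (SE 0.29, adjusted p = 0.449). Aire, which overlaps Dnmt3l on the opposite strand, lay between 1.80 and 6.29 FPKM.

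Tet2 (chromosome 3, 133463679 to 133545139) stood at 12.002 FPKM in WT with LIF and 3.92 without, at 10.3 and 5.88 in KO 1 and at 7.72 and 2.86 in KO 2. Libraries with LIF were all above those without. Tet2 fell by 1.10 (log2, SE 0.24, adjusted p = 0.0165), a call that was lost without KO 1 with LIF (adjusted p = 0.0575) and without the filter on low values (0.0557). Without either WT library the result is that of KO cells alone (-0.94), which did not pass. Tet1 (chromosome 10, 62804570 to 62908996), the most abundant Tet gene, stood at 37.3 and 18.2 FPKM in WT, 36.9 and 33.8 in KO 1 and 35.6 and 18.6 in KO 2. The 3 libraries with LIF were alike, and KO 1 without LIF stayed near them while the other pair stood near a common lower level. The difference of -0.67 did not pass (SE 0.21, adjusted p = 0.0558), and without KO 1 after removal it was -0.95 (adjusted p = 0.00471). Tet3 (chromosome 6, 83362373 to 83459084) stood at 0.954 and 1.18 FPKM in WT, 1.45 and 1.98 in KO 1 and 1.60 and 2.93 in KO 2, with a difference of 0.35 (SE 0.19, adjusted p = 0.228).

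**Figure D2:**
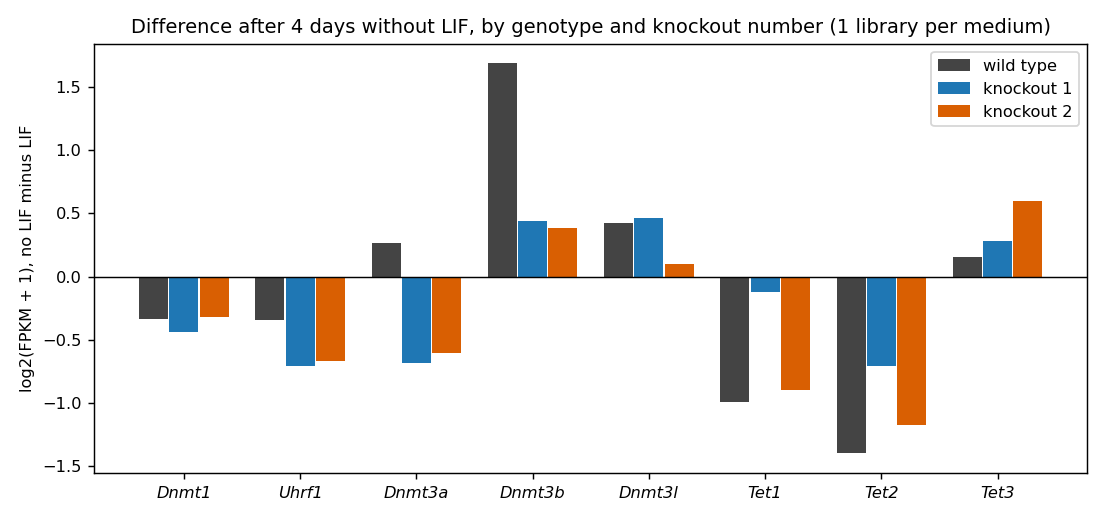
Difference in log2(FPKM + 1) between the library after 4 days without LIF and the one with LIF (y axis) for each gene (x axis), for WT and for KO libraries of the same number. Each bar compares 1 library with 1, so bars have no error. Dnmt3a goes up in WT (0.27) and down in KO 1 (-0.69) and KO 2 (-0.60), and the Dnmt3b bar is 1.69 in WT against 0.44 and 0.38.

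In WT cells alone, 1 library against 1, no test could be made. With a bound of 1 log2 unit in either direction, Dnmt3b (1.69) and Tet2 (-1.40) passed, 2 of 8 against 8.36% of all genes. Tet1 (-0.99) lay just inside it, and the other 5 lay between -0.35 and 0.42. In KO cells alone, 2 libraries against 2, Uhrf1 (-0.69, SE 0.12, adjusted p = 0.0276) and Dnmt3a (-0.65, SE 0.14, adjusted p = 0.0461) fell, 2 of 8 against 6.92% of all genes. Tet2 (-0.94, adjusted p = 0.105), Dnmt3b (0.41, 0.132) and Tet1 (-0.51, 0.256) did not pass. Both calls in KO cells were lost when any 1 KO library was left out, with adjusted p between 0.0602 and 0.119 for Uhrf1 and between 0.0918 and 0.167 for Dnmt3a, while the differences lay between -0.71 and -0.67 and between -0.71 and -0.58. Both were also lost without the filter (adjusted p = 0.138 each) and without the trend (0.0569 and 0.0664), and Dnmt3a after quantile normalization (0.0592). Without KO 1 after removal, Tet1 (-0.92) and Tet2 (-1.36) were called instead.

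KO against WT over both media, 4 libraries against 2, gives the average difference between KO and WT libraries. With 1 WT library per medium and KO libraries of unstated origin, Hnrnpf loss and other differences between the cells cannot be told apart. Uhrf1 was lower in KO cells and was the one gene called, 1 of 8 against 10.5% of all genes. The median log2 difference of the 8 genes was -0.05, and that of all genes -0.03. KO and WT libraries did not overlap for Tet3 alone among the 8, against 24.9% of all genes tested. At an unadjusted p under 0.05 there were 2 of the 8, Uhrf1 and Tet3, against 27.7% of all genes.

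In KO 1 and KO 2, Uhrf1 stood at 83.1% and 80.5% of the WT value with LIF and at 64.3% and 63.9% after removal, so both KO libraries lay below WT in each medium. It fell by 0.46 over both media (log2, SE 0.11, adjusted p = 0.0386), and the SD of the KO pair was 2.42 FPKM with LIF and 0.288 after removal (n = 2). The call was lost when any 1 KO library was left out (adjusted p between 0.0502 and 0.0812). It was also lost after quantile normalization (-0.38, adjusted p = 0.0802), without the filter (0.0785) and without the trend (0.0788), with the direction kept each time. Without either WT library only the other medium compares genotypes, and the result is the single-medium difference. The single-medium differences were -0.29 in the presence of LIF (adjusted p = 0.375) and -0.63 (SE 0.14, adjusted p = 0.15) after removal. The median of the 20 tested neighbours of Uhrf1 was -0.01 over both media and between -0.14 and 0.09 in the single KO libraries, with 2 called lower and 0 higher. Dnmt1 was at 101% and 79.3% of WT with LIF and at 94.1% and 80.0% after removal in KO 1 and KO 2, a difference of -0.18 (SE 0.13, adjusted p = 0.419).

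Tet3 was higher in all 4 KO libraries, at 151% and 168% of WT with LIF and at 168% and 249% after removal, in KO 1 and KO 2. Its difference over both media was 0.51 (SE 0.20) and did not pass (adjusted p = 0.149). With a pseudocount of 0.1 in place of 1, which compresses low values less, it was 0.80 (adjusted p = 0.144). Tet3 lies in a stretch of chromosome 6 where other genes were higher too: of its 10 nearest tested genes on each side, between 83.12 and 85.08 Mb, 14 of 20 were called higher and 1 lower. Their median was 0.77 over both media and between 0.71 and 0.81 in the single KO libraries, above the 0.51 of Tet3 itself. Around the other 7 genes the median of the neighbours lay between -0.11 and 0.07. The part of this stretch in the Tet3 value was not tested.

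**Figure D3:**
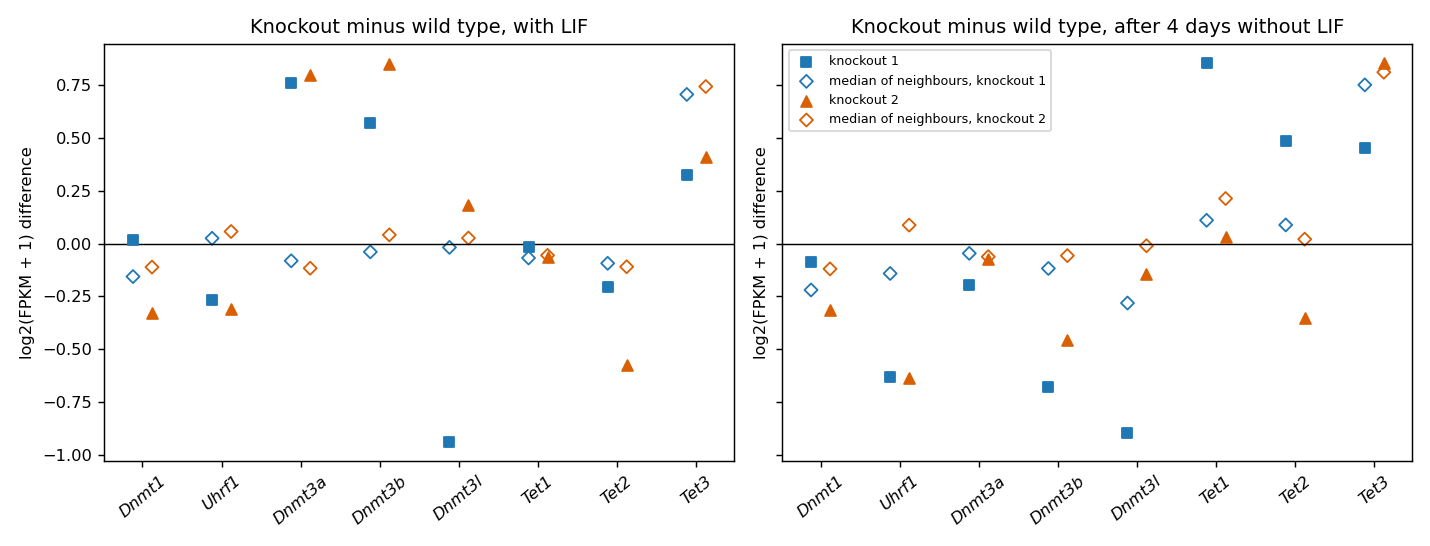
Log2(FPKM + 1) of each KO library minus the WT library of the same medium (y axis) for the 8 genes (filled symbols), with LIF on the left and after 4 days without LIF on the right. Open diamonds are the median of the tested neighbours of each gene in the same library. Dnmt3a and Dnmt3b lie above 0 on the left and below it on the right, and Tet3 is the one gene whose neighbours (0.71 to 0.81) lie far from 0.

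Dnmt3a and Dnmt3b stood on opposite sides of WT in the 2 media. With LIF, both KO libraries were above WT, at 173% and 178% for Dnmt3a and 149% and 181% for Dnmt3b. After removal both were below it, at 86.7% and 94.8% for Dnmt3a and 62.4% and 72.7% for Dnmt3b. This pattern of above, then below, held for 5.18% of all genes tested, and either order for 11.3%, which among the 8 adds Tet1 with differences near 0 in all but 1 library. In the medium with LIF the KO difference of Dnmt3a was 0.78 (SE 0.17, adjusted p = 0.116), and without it -0.13 (SE 0.17, adjusted p = 0.763). For Dnmt3b it was 0.71 (SE 0.18, adjusted p = 0.140) and -0.57 (SE 0.18, adjusted p = 0.216). None of the 8 was called in either medium by limma, where 0.0424% and 0.0594% of all genes were. The unadjusted p was under 0.05 for 2 of the 8 with LIF (Dnmt3a and Dnmt3b), against 16.7% of all genes, and for 2 after removal (Uhrf1 and Dnmt3b), against 15.5%.

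The difference between the 2 media was tested directly as the response of KO cells to LIF removal minus that of WT cells. It was -0.91 for Dnmt3a (SE 0.25, unadjusted p = 0.00810, limma) and -1.28 for Dnmt3b (SE 0.26, unadjusted p = 0.00176, limma). Neither passed (adjusted p = 1 for each), nor did any of the 11785 genes (0% called by limma), of which 340, or 2.89%, had an unadjusted p under 0.05. Among the 8 genes Dnmt3a and Dnmt3b were the 2 with an unadjusted p below that bound. Each value rests on the single WT library of each medium. The 20 neighbours of Dnmt3b and the 16 available for Dnmt3a had medians between -0.12 and 0.04 in every KO library.

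The 2 KO libraries were far apart for Dnmt3l in both media and for Tet1 and Tet2 after LIF removal. Dnmt3l in KO 2 was 2.19 times its level in KO 1 with LIF and 1.69 times after removal, and KO 1 stood at 51.9% and 53.5% of WT where KO 2 stood at 113% and 90.3%. The KO difference of Dnmt3l over both media was -0.45 (SE 0.31, adjusted p = 0.386). In an alternative chosen after seeing the data, it was -0.92 (adjusted p = 0.00104) with KO 2 left out in both media and 0.02 (adjusted p = 0.929) with KO 1 left out. After LIF removal, KO 2 had 0.551 times the Tet1 level of KO 1 and 0.486 times its Tet2 level, and 0.965 and 0.752 times with LIF. Over both media neither passed (Tet1 0.20, adjusted p = 0.608; Tet2 -0.16, adjusted p = 0.725). For Dnmt3b, Dnmt3a and Uhrf1 the ratios of KO 2 to KO 1, with LIF and after removal, were 1.22 and 1.17, 1.03 and 1.09, and 0.968 and 0.994. The libraries numbered 2 also had the lower Hnrnpf value in each medium, and whether this goes with the other differences was not tested.

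Within a library, the makeup of the 2 enzyme classes can be read without a comparison of totals. The sum of Dnmt3a and Dnmt3b was 1.52 times Dnmt1 in WT with LIF and 5.74 times after removal. In KO 1 the ratio went from 2.29 to 3.89 and in KO 2 from 3.47 to 5.30, so KO libraries were above WT with LIF and below it without. Dnmt3b over Dnmt3a was 6.68, 5.75 and 6.79 with LIF and 17.9, 12.8 and 13.7 after removal, in WT, KO 1 and KO 2. Dnmt3l relative to the sum of Dnmt3a and Dnmt3b was highest in WT with LIF (1.0015) and lay between 0.342 and 0.630 in the other 5 libraries.

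Tet transcripts summed to 50.2, 48.6 and 44.9 FPKM with LIF and to 23.3, 41.6 and 24.4 after removal, in the same order. Tet1 made up between 74.2% and 81.1% of the sum in every library. Tet2 went from 23.9% to 16.8% in WT, from 21.1% to 14.1% in KO 1 and from 17.2% to 11.7% in KO 2. Tet3 made up between 1.90% and 5.05%, save in KO 2 after removal, where it reached 12.01%. The ratio of summed Dnmt3a and Dnmt3b to summed Tet transcripts thus went from 2.67 to 17.1 in WT, from 4.195 to 6.11 in KO 1 and from 5.39 to 12.1 in KO 2.

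**Figure D4:**
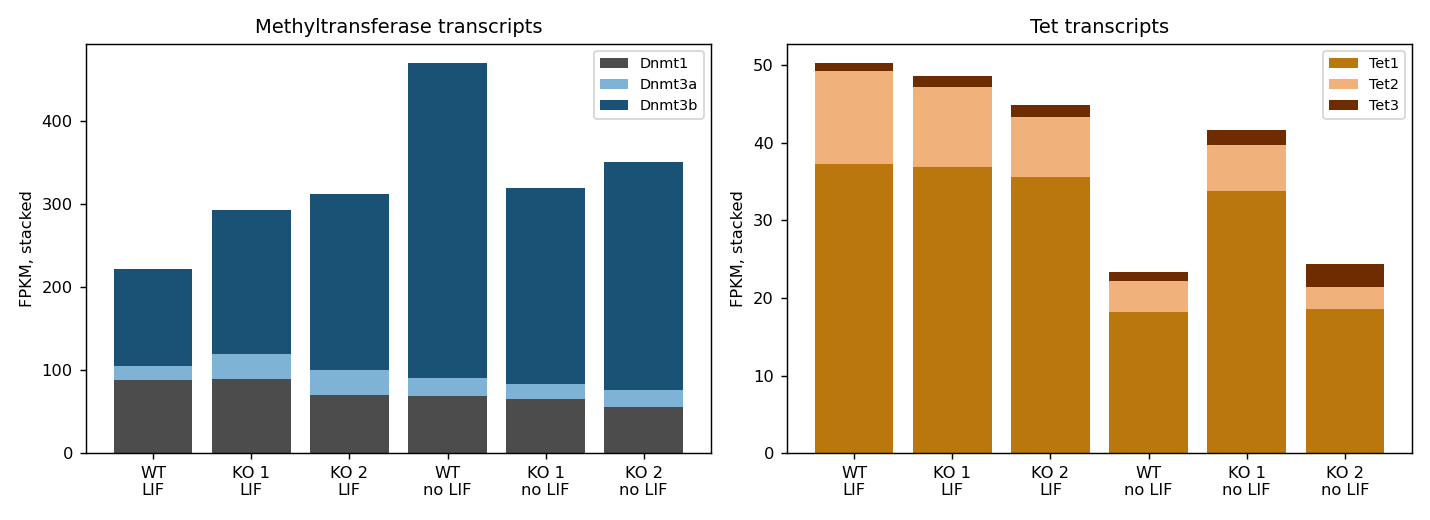
Stacked FPKM (y axis, from 0) of Dnmt1, Dnmt3a and Dnmt3b on the left and of Tet1, Tet2 and Tet3 on the right, for each of the 6 libraries (x axis). Dnmt3b makes up most of the taller WT column without LIF, and the Tet column of KO 1 without LIF (41.6 FPKM) is closer to the columns with LIF than to those of WT (23.3) and KO 2 (24.4).

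The genes whose log2(FPKM + 1) was most like each member's over the 6 libraries were sought among genes averaging 5 FPKM or more. With 6 libraries and so many genes, high values of Pearson's r arise easily, and they are given as a description. Dnmt1 was most like Plekhb1 (r = 0.996), Stat2 (0.994) and Kxd1 (0.994), and Uhrf1 most like Hspbp1 (0.998), Coro1b (0.996) and Acot7 (0.994). For Dnmt3a these were Fmnl3 (0.973), Bysl (0.967) and Tmem120b (0.963), and for Dnmt3b Inf2 (0.980), Eloa (0.980) and Tbpl1 (0.979). Dnmt3l was most like Mapre2 (0.981), Csrnp1 (0.970) and Rab5if (0.969), all lowest in KO 1. Tet1 was most like Enah (0.981), Nadk2 (0.978) and Mavs (0.978), Tet2 like Adam23 (0.996), Kat2b (0.994) and the fibronectin gene Fn1 (0.993), and Tet3 like Mkks (0.984), Alg2 (0.979) and Msl1 (0.977). Among the members, the closest pairs were Tet1 with Tet2 (r = 0.910), Dnmt1 with Tet2 (0.905) and Dnmt1 with Uhrf1 (0.845), and the most opposed were Uhrf1 with Tet3 (-0.896) and Dnmt3b with Tet2 (-0.880).

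Counts called in the lists below stand beside 10.5% of all genes called between genotypes and 21.4% on LIF removal. Of 8 maintenance partners, all tested, 1 was higher in KO cells and 1 higher and 2 lower after LIF removal. Dppa3, which encodes an inhibitor of UHRF1, stood at 24.95 FPKM in WT, 50.5 in KO 1 and 70.9 in KO 2 with LIF, and at 14.4, 32.1 and 26.2 without. It was higher than WT in both KO libraries of each medium. The KO difference was 1.10 (log2, SE 0.16, adjusted p = 0.0111) and that on LIF removal -0.93 (adjusted p = 0.00646). Like every list call between genotypes below, the KO call rests on 1 WT library per medium. For list genes no value is given here with a library left out. Without either WT library only 1 medium compares genotypes, and over all genes most calls between genotypes were then lost. Dppa3 lies on chromosome 6, as does Tet3, and whether this goes with its value was not tested. Lig1, the replicative ligase, fell by 0.43 on LIF removal and Cdca7l rose by 0.40, while Hells (0.04, adjusted p = 0.876), the remodeler needed for methylation of repeats, and Pcna (-0.01, 0.958) did not pass.

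Of 10 genes that target or accompany de novo methylation, 1 was higher in KO cells and 3 were lower after LIF removal. Of all genes, 10.5% and 21.4% were called. Zfp57, which guards methylation of imprinted regions, stood at 120 FPKM in WT, 183 in KO 1 and 251 in KO 2 with LIF, and at 50.0, 129 and 83.8 without. KO libraries were above WT in each medium. Zfp57 rose by 0.93 in KO cells (SE 0.19, adjusted p = 0.0238) and fell by 1.11 on LIF removal (adjusted p = 0.00604). Prdm14, a repressor of Dnmt3b in naive cells, fell by 1.13 on LIF removal (adjusted p = 0.0142) and had a difference of -0.01 between genotypes. Ehmt2, a histone H3K9 methyltransferase, fell by 0.54 on LIF removal.

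On the removing side, 1 of 6 tested Tet partners was lower in KO cells and none was called on LIF removal. The shares over all genes were 10.5% and 21.4%, here and for the repair genes and readers. Cxxc5, a CXXC protein known to bind TET2, stood at 48.3, 26.9 and 25.5 FPKM with LIF and 38.0, 28.7 and 30.1 without, in WT, KO 1 and KO 2, and fell by 0.61 in KO cells (SE 0.14, adjusted p = 0.0314). Its relative Cxxc4 was at 1.11 FPKM or below and not tested. Of 13 repair genes none was called in KO cells and 3 were lower on LIF removal: Parp1 (-0.63), Hmces (-0.88) and Neil2 (-0.85). Tdg, the glycosylase that excises oxidised methylcytosine, lay between 1.09 and 2.26 FPKM and did not pass (adjusted p = 0.658 for KO and 0.538 for LIF removal). Of 6 tested methyl-CpG readers, Zbtb33 (Kaiso) rose by 0.84 and Zbtb38 fell by 0.53 on LIF removal, and none was called in KO cells.

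Of 15 genes that supply the methyl donor and the TET cosubstrate alpha-ketoglutarate, 3 were higher and 1 lower in KO cells, where 10.5% of all genes were called, and 6 were lower on LIF removal, where 21.4% were. Mat2a and Mat2b, subunits of the S-adenosylmethionine synthetase, rose by 0.76 (adjusted p = 0.0238) and 0.68 (adjusted p = 0.0111) in KO cells, and Ogdh, which consumes alpha-ketoglutarate, by 0.60 (adjusted p = 0.0208). Mat2a lies on chromosome 6 and Mat2b and Ogdh on chromosome 11. Tested genes of these pathway lists on chromosome 6 that were not called between genotypes were Mbd4 (0.19), Gadd45a (0.50) and Hmces (0.55). On chromosome 11 they were Shmt1 (0.21) and Lig3 (0.24). Every tested gene of the pathway lists on chromosomes 6 and 11, called or not, thus had a positive difference between genotypes. Of the list genes called higher in KO cells, only Zfp57 (chromosome 17) lies elsewhere. Cxxc5 (chromosome 18) and Idh2 (chromosome 7) were called lower. Whether position goes with these differences was not tested. Idh2, which makes alpha-ketoglutarate in mitochondria, stood at 162, 68.6 and 63.4 FPKM with LIF and 47.3, 37.6 and 31.2 without, and fell by 0.87 in KO cells (adjusted p = 0.0266) and by 1.20 on LIF removal (adjusted p = 0.00407). The other falls on LIF removal were Gldc (-0.71), Idh3g (-0.54), Shmt2 (-0.48), Shmt1 (-0.52) and Tdh (-0.86).

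Germline genes known to be silenced by promoter methylation showed no call between genotypes among the 7 of 12 that could be tested, with a median of 0.32. On LIF removal Ddx4 rose (0.68, adjusted p = 0.0164) and Hormad1 fell (-0.91, adjusted p = 0.0477). Dazl lay between 1.46 and 3.21 FPKM and Asz1 was listed at 0 in all 6 libraries. Others of the list were higher: Sycp3 (7.06 to 15.9 FPKM), Ddx4 (5.28 to 14.8), Mael (4.74 to 10.6) and Tdrkh (2.97 to 10.2). Of the 12 S phase and proliferation genes, Mcm2 (0.53, adjusted p = 0.0208, chromosome 6) and Cdc6 (0.46, adjusted p = 0.0409, chromosome 11) rose in KO cells. There 10.5% of all genes were called, and the list median was -0.16.

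**Figure D5:**
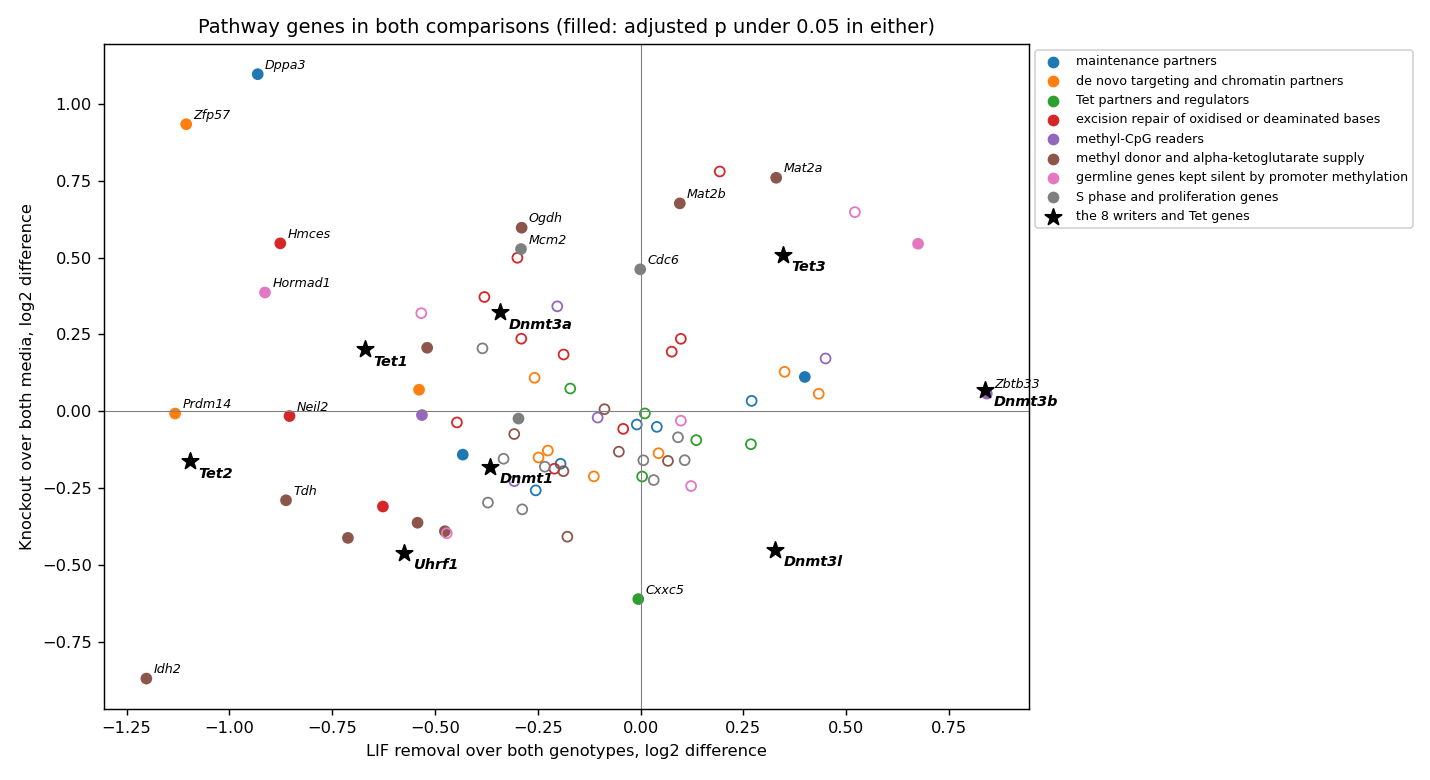
Log2 difference on LIF removal over both genotypes (x axis) against that between KO and WT over both media (y axis) for the tested genes of the 8 lists (circles, colour by list, filled where either comparison passed) and the 8 writers and Tet genes (stars). Dppa3 and Zfp57 lie at the upper left, higher in KO cells and lower without LIF, Idh2 at the lower left, and Dnmt3b furthest right of the stars at 0.84.

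The cell type named in the labels could be checked against its markers. All 8 stem cell markers were present in every library, with a summed level of 6752 to 9513 FPKM with LIF and 3211 to 4327 without. The largest part was Dppa5a alone, at 4062 to 6460 FPKM with LIF and 1542 to 2155 without. On LIF removal 7 of 8, Tdgf1 being the exception, were called lower, against 21.4% of all genes called. None was called between genotypes. Feeder fibroblast markers summed to between 3.33 and 8.36 FPKM, mostly Thy1. With LIF, Thy1 stood at 3.16 FPKM in WT and 7.01 in each KO library, and without it between 4.05 and 5.16. Col1a1 reached 1.24 FPKM, and Postn, Lum and Dcn were at 0 in 3, 5 and 2 libraries. Primitive endoderm markers summed to between 2.06 and 4.39 FPKM with LIF and between 5.41 and 11.8 without, mesendoderm markers to between 0.784 and 2.18 and between 4.04 and 17.4, the highest in KO 2, trophoblast markers to between 23.0 and 38.7 and between 26.7 and 33.1, and neural markers to between 84.6 and 92.4 and between 62.5 and 101. The trophoblast sum is mostly Tfap2c (10.7 to 33.4 FPKM), except in WT without LIF, where Eomes (13.6 FPKM) stood above Tfap2c (10.7). The neural sum is mostly Tubb3 (47.5 to 84.5).

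Of the markers of other cell types that could be tested, 5 rose on LIF removal, where 21.4% of all genes were called. They were Dab2 of primitive endoderm (1 of 2 tested) and Eomes and Gata3 of the trophoblast list (2 of 4). In that list Cdx2 (0.81) and Tfap2c (-0.60) were not called. The others were T of mesendoderm (the 1 tested) and Nes of the neural list (1 of 3). Nes, which encodes nestin, stood at 1.57, 3.41 and 4.42 FPKM with LIF and 18.3, 11.2 and 15.98 without, in WT, KO 1 and KO 2, and rose by 2.01 (adjusted p = 0.00352). T (brachyury) stood at 0.0426, 0.199 and 0.711 FPKM and at 1.81, 4.45 and 13.3, and rose by 2.23 (adjusted p = 0.00793). Dab2 rose by 1.57 (adjusted p = 0.00693) to between 3.62 and 9.09 FPKM, Gata3 by 1.16 (0.0117) and Eomes by 0.93 (0.0148). T and Gata3 (0.0512 to 0.735 FPKM with LIF) were under 1 FPKM in every library with LIF. They passed the filter for testing only through the libraries without it, and markers that stayed low were not tested. The filter thus partly sets these 2 calls and the count of 5. Tubb3 fell by 0.51 (adjusted p = 0.0398), and no marker of these lists was called between genotypes. Gata6, Sox17, Elf5 and Neurog2 were under 1 FPKM in every library. The part of these shifts in the responses of the writers and Tet genes to LIF removal was not tested.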

How the data were processed

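The authors deposited 1 table of FPKM values per gene symbol for the 6 libraries, made with STAR and Cufflinks on mm10 per the submitters' processing notes. Versions, annotation, strand setting and read totals are not stated in what was used here, so the depth behind a value is unknown, and 1 value per symbol does not separate isoforms. Values were taken as log2(FPKM + 1). The 11785 genes averaging 1 FPKM or more were fitted with limma 3.58.1 in R 4.3.3, with an intensity trend, two-sided tests and Benjamini-Hochberg adjustment over all of them, and called at an adjusted p under 0.05. Effects over both media or genotypes came from an additive fit of genotype and medium, effects within a medium or genotype and the difference of responses from a fit of the 4 groups. In the latter, spread is known only from the KO pairs and is assumed for the single WT libraries. The scripts were tested on simulated data. Samples were grouped by their labels.

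The members and lists were chosen with earlier results of these data known. Named genes were the 8 members, list genes past the threshold or among the 4 with the lowest p, the 3 genes most like each member, and Hnrnpf. Hells, Pcna, Tdg, Mbd4, Lig3, Dazl, Cxxc4, Asz1 and single cell type markers are named outside that rule. They were chosen after their values were seen. Gene positions are from GENCODE vM21 (mm10). Alternatives were the pseudocount, the filter, scaling, the trend, leaving out each library, the replicate block and, chosen after seeing the data, leaving out a KO number.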

Additional observations from a re-analysis of the deposited data

Results flagged for a closer look

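For 3 of the 8 genes both KO libraries lay on one side of WT with LIF and on the other side after its removal. The difference between the media was tested and did not pass for any of them (limma, adjusted p = 1 each): it was -0.91 for Dnmt3a (log2, SE 0.25), -1.28 for Dnmt3b (SE 0.26) and 0.48 for Tet1 (SE 0.45). For Tet1 the value rests on KO 1 after removal, and without that library it was 0.07.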

How the results depend on the processing

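Of the 8 genes, 1 was called between genotypes over both media. Without the filter on low values, with quantile normalization or without the intensity trend 0 were called, leaving out 1 library gave 0 to 0, and the fit with the replicate block gave 2 (Uhrf1 and Dnmt3l). On LIF removal 3 were called (Uhrf1, Dnmt3b and Tet2). Without the filter 1 was (Uhrf1) and without the trend 2 were (Uhrf1 and Tet2). Leaving out 1 KO library gave 1 to 4. Without either WT library the fit is that of KO cells alone, where Dnmt3a was called and Dnmt3b and Tet2 were not. The replicate block gave 6, adding Dnmt1 (adjusted p = 0.0174), Tet1 (0.0171) and Dnmt3l (0.042), and leaving out either KO number gave 5. In KO cells 2 were called, and the count was 0 without the filter, 1 with quantile normalization, 0 without the trend, 0 to 2 with 1 library left out and 4 with the replicate block, which added Tet2 (adjusted p = 0.00815) and Dnmt3b (0.0352). Counts of 0 within a medium and for the difference of responses were 0 under every alternative run. The cause was not tested. The direction between genotypes turned for Dnmt3a (-0.13 to 0.78 with 1 library left out), Dnmt3b (-0.57 to 0.71), Tet1 (-0.039 to 0.44) and Tet2 (-0.39 to 0.067). Without 1 WT library, only the other medium compares genotypes. The ends of these ranges are thus the single-medium differences again, not a further check. The direction also turned for Dnmt3l (0.018) and Tet1 (-0.018) without both KO 1 libraries and for Dnmt3b (-0.054) and Tet2 (0.14) without both KO 2 libraries. With a pseudocount of 0.1, 3 genes passed the bound in WT. Number 2 minus number 1 differences correlated across 11785 genes between the media (r = 0.366), but with 2 pairs the numbers were not taken to pair the libraries. Over all genes, the 1232 called between genotypes became 335 without the filter, 560 without KO 2 with LIF, 2147 with the replicate block and 2532 without both KO 1 libraries. Without either WT library the fit is that of the other medium alone, and the count is the one within that medium. The 2523 called on LIF removal became 1395 without KO 1 with LIF and 1665 without KO 2 after it. Without either WT library the count was close to that in KO cells alone. The 816 in KO cells became 0 without the filter, 124 to 821 with 1 library left out and 2615 with the replicate block. Depth is unknown, so counting error is too.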
